A study of Mus musculus with 12 samples.

Results

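The nuclear genes of respiratory complexes II to V were measured in RNA of the lumbar spinal cord of MFN2 and WT mice. The genes were chosen by symbol: Sdha to Sdhd, Cyc1, Cycs, and every protein-coding gene whose symbol starts with Uqcr, Cox4 to Cox8 or Atp5 in GENCODE M21, matched by Ensembl identifier. Of the 49548 identifiers in each library, 49 met this rule, with 4 genes of complex II, 9 of complex III, the gene of cytochrome c, 18 of complex IV and 17 of complex V. A duplicate identifier of Atp5o was not analysed here. MFN2 mice (n = 8) were MitoCharc1 animals, of the line Tg(Eno2-MFN2*R94Q)L51Ugfm/J on a mixed background labelled B6;D2, which keep their own Mfn2 and carry a human MFN2 transgene with the R94Q change under the rat Eno2 promoter, active mainly in neurons. WT mice (n = 4) are labelled C57BL/6, so that by the labels the genotype and the strain background cannot be told apart, although the study's methods describe them as littermates. All mice were untreated and 30 days old. The human transgene was not analysed here. Groups follow the labels, and the study's methods state that the mice were genotyped by PCR.

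Complex II oxidizes succinate and passes the electrons to ubiquinone, complex III hands them on to cytochrome c, and complex IV, cytochrome c oxidase, uses them to reduce oxygen to water. The proton gradient that complexes III and IV help to build drives complex V, the ATP synthase. Complexes III to V combine subunits encoded in the nucleus with a few encoded in the mitochondrial genome, and several subunits of complexes IV and V come in paralogous forms, such as heart and muscle forms beside liver or ubiquitous forms. MFN2 is a protein of the outer mitochondrial membrane that takes part in mitochondrial fusion. Of the genes of the mitochondrial chromosome, 0 were among the identifiers, so only the nuclear subunits are described.

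The libraries of MFN2 mice held 19359454 to 26738930 counts and those of WT mice 19453238 to 23564568. The complex II to V genes together took 0.587% ± 0.0359 (SD, n = 8) of the counts in MFN2 mice and 0.601% ± 0.0184 (SD, n = 4) in WT mice. Levels are given as CPM, the counts scaled to the TMM-adjusted size of the library, and 45 of the 49 genes exceeded 1 CPM in at least 3 libraries and were tested. The other 4, Cox6a2, Cox6b2, Cox7b2 and Cox8c, were too low to test. Libraries are numbered 41 to 47 and 72 to 76. WT mice hold 44 to 47 and MFN2 mice hold 41 to 43 and 72 to 76, so that for 72 to 76 the genotype and the run of numbers cannot be told apart.

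The MFN2 library 43 stood apart from its label. Forebrain markers summed to 4780 CPM there (11 genes, 0 of them at 0, Camk2a the most abundant at 1920 CPM), against 112 to 209 CPM in the other 11 libraries. Spinal cord markers summed to 132 CPM (12 genes, with Slc6a5 at 76.3 CPM), against 706 to 824 CPM elsewhere. Its oligodendrocyte markers were also the lowest, at 6560 CPM against 17400 to 29100 CPM. Library 73 differed in markers of other tissues. Its blood markers summed to 333 CPM (5 genes, 0 of them at 0, Hbb-bs the most abundant at 114 CPM), against 68.1 to 202 CPM in the other 11 libraries, and its skeletal muscle markers were also the highest, at 322 CPM. The main counts and the values of several genes are therefore given with and without library 43.

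Divided by the length of all annotated exons, Atp5a1, the alpha subunit of the ATP synthase, had the highest level of the 49 genes, at 247 ± 10.6 RPKM in WT mice (SD, n = 4) and 242 ± 16.2 RPKM in MFN2 mice (SD, n = 8). The highest of the other complexes, by the mean of all libraries, were Cox8a in complex IV, at 209 ± 17.4 RPKM in WT mice, Sdha in complex II, at 109 ± 5.23 RPKM, and Uqcrb in complex III, at 92.9 ± 4.75 RPKM (SD, n = 4). Within complex III the order of the neighbours Uqcrb and Uqcr11 differed between the genotypes: Uqcr11 was at 107 ± 6.82 RPKM in WT mice (SD, n = 4) and at 90.9 ± 14.0 RPKM in MFN2 mice (SD, n = 8), where Uqcrb was at 105 ± 13.3 RPKM. The spreads of these neighbours overlapped in MFN2 mice. The order depends on the length used. Per base of the shortest principal transcript, Cox6c was first in WT mice, at 671 on the same per-kilobase scale, and Atp5a1 was sixth, at 314.

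The main comparison asked which of these genes differed between the genotypes. In edgeR's quasi-likelihood test 0 of the 45 genes passed an FDR of 0.05, as did 0% of all 15942 genes tested. The study itself reported differentially expressed genes between these genotypes, by an edgeR generalized linear model whose test is not named. DESeq2's Wald test on the same counts called 5 of the 45, all lower (Cyc1, Cox4i1, Cox7c, Atp5e and Atp5j2), and 1.25% of all genes. At an unadjusted p under 0.05 there were 16 of the 45 genes, all of them lower in MFN2 mice, where 7.57% of all genes tested were lower and 7.40% higher at this threshold. With scaling by library size alone, the split over all genes moved from 1179 higher and 1207 lower to 1839 higher and 743 lower, and that of the complex II to V genes to 0 higher and 8 lower (11.5% and 4.66% of all genes). The log2 fold change was below 0 in 38 of 45 genes (49.2% of all genes), with a median of -0.136 beside 0.004 over all genes tested. With scaling by library size alone it was below 0 in 33 of 45 genes (39.3% of all genes), with a median of -0.0823 beside 0.054. In 6 genes every MFN2 mouse lay below every WT mouse, and in 0 genes above, against 1.07% and 0.979% of all genes tested. The 6 were Cyc1, Cox5a, Cox6b1, Atp5e, Atp5j2 and Atp5k. In whole tissue, less RNA per cell and fewer cells of a type cannot be told apart.

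**Figure D1:**
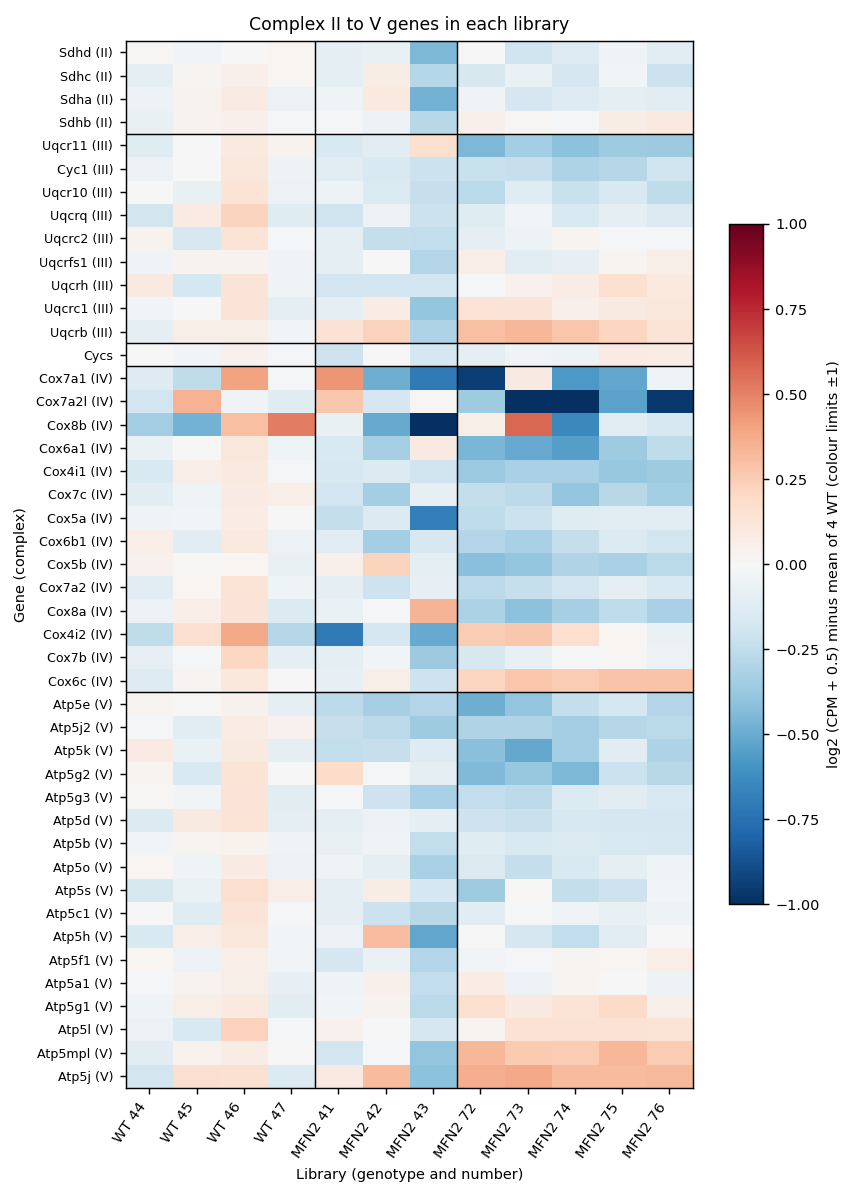
Colours show log2 (CPM + 0.5) of each of the 45 tested genes (rows, by complex and then by fold change) minus its mean in the 4 WT libraries, for the 12 libraries (columns). Most rows were below the WT mean in the MFN2 libraries, with library 43 the lowest column (median -0.25) and WT 46 the highest (median 0.10).

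By library, the median deviation from the WT mean over the 45 genes ran from -0.25 in library 43 to -0.06 in library 42 among MFN2 mice, on the log2 scale. Among WT mice it was -0.06 in library 44, 0 in 45, 0.10 in 46 and -0.04 in 47. MFN2 42 and WT 44 thus had the same median. In WT 46, 1 of the 45 genes was below the WT mean. Without WT 46, the number of genes lower at an unadjusted p under 0.05 dropped from 16 to 7 (4.85% of all genes), with 0 higher (4.20%), and the median log2 fold change was -0.0998. Library 43 was the lowest of all 12 for 26 of the 45 genes, where 28.7% of all genes tested were lowest there. Without it, 17 of the complex II to V genes were lower and 3 higher at an unadjusted p under 0.05 (10.4% and 10.7% of all genes), with a median of -0.12, and 1 gene, Atp5j2, passed the FDR (0.120% of all genes). Without library 73, 12 genes were lower and 0 higher at that p (5.94% and 6.98% of all genes).

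**Figure D2:**
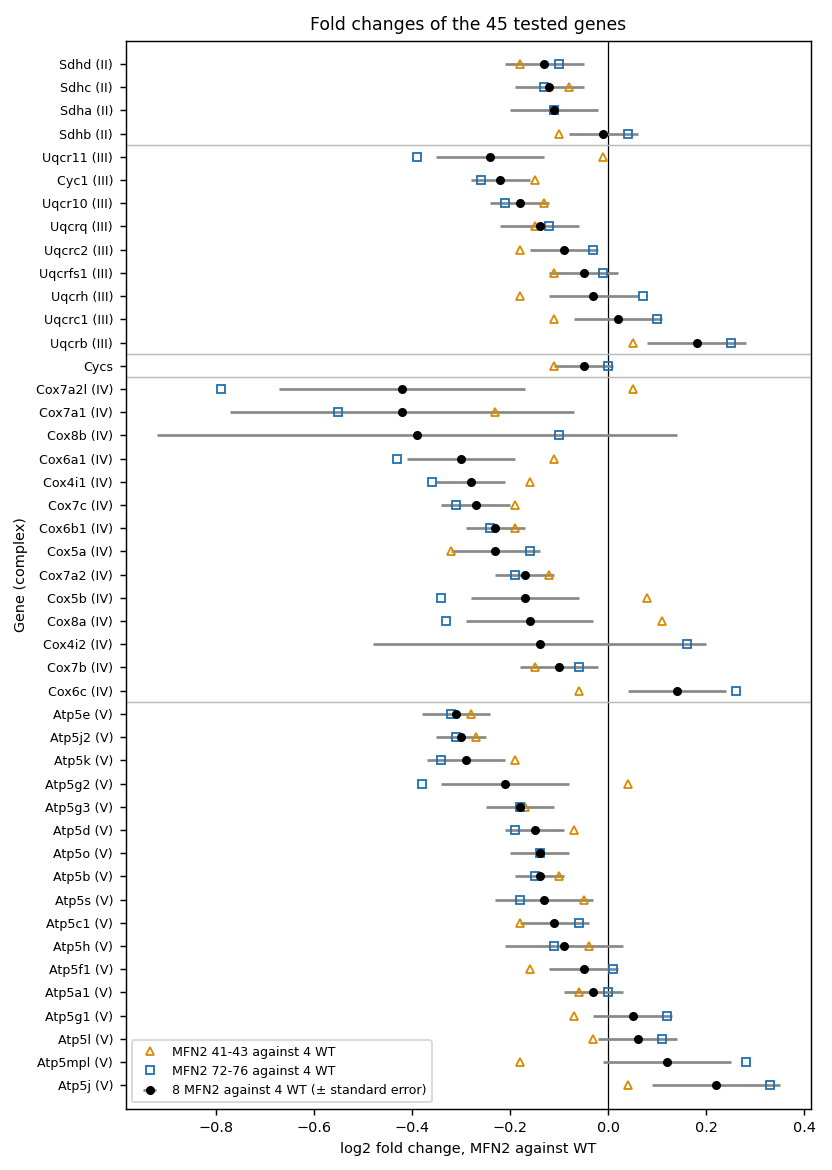
Log2 fold changes of the 45 tested genes by complex: black points with standard errors, 8 MFN2 against 4 WT mice, and open symbols, MFN2 libraries 41 to 43 and 72 to 76, each against the same 4 WT mice. The points lay below 0 for 38 genes, and the 7 above 0 include Uqcrb, Cox6c and Atp5j.

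In complex II, 0 of 4 genes had an unadjusted p under 0.05, and the log2 fold changes ran from -0.13 to -0.01. Sdhd, a membrane anchor subunit that binds ubiquinone, was at 41.9, 40.8, 41.6 and 42.1 CPM in WT mice and at 30.3 (lowest), 38.7 (median) and 41.7 CPM (highest) in MFN2 mice. In 7 of 8 MFN2 mice it was below the lowest WT value, with a log2 fold change of -0.13 (standard error 0.08, unadjusted p = 0.101 and adjusted p = 0.398, edgeR). Sdhc, the other anchor, was at 60.1, 65.5, 66.6 and 65.1 CPM in WT mice and at 52.7, 58.9 and 67.7 CPM (lowest, median, highest) in MFN2 mice. The groups overlapped at both ends (log2 fold change -0.12, standard error 0.07, adjusted p = 0.415). Sdha, the flavoprotein that oxidizes succinate, was at 431, 460, 474 and 431 CPM in WT mice and at 323, 417 and 479 CPM (lowest, median, highest) in MFN2 mice. Its lowest value came from library 43 and its highest from library 42, and the log2 fold change of -0.11 became -0.07 without library 43 and 0.04 with libraries 41 and 42 alone against WT. For Sdhb, the iron-sulfur subunit, the log2 fold change was -0.01, and 0.02 without library 43. Without that library it was -0.09 for Sdhd and -0.09 for Sdhc.

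In complex III, 3 of 9 genes were lower at an unadjusted p under 0.05 (7.57% of all genes), and the median log2 fold change was -0.091. Cyc1 (ENSMUSG00000022551, chr15:76343523-76346260, GRCm38) encodes cytochrome c1, the subunit that passes electrons to cytochrome c. Its level was 81.9, 85.6, 92.3 and 82.5 CPM in WT mice and 68.8 (lowest), 73.3 (median) and 79.3 CPM (highest) in MFN2 mice. The groups did not overlap, with 73.6 ± 3.40 CPM (SD, n = 8) against 85.6 ± 4.75 CPM (SD, n = 4), a log2 fold change of -0.22 (standard error 0.06, unadjusted p = 0.00171 and adjusted p = 0.254, edgeR). Uqcr10, a small supernumerary subunit, was at 43.7, 41.6, 48.4 and 42.2 CPM in WT mice and at 36.3, 38.6 and 42.5 CPM (lowest, median, highest) in MFN2 mice. Every MFN2 value but that of library 41 was below the lowest WT value (log2 fold change -0.18, standard error 0.06, adjusted p = 0.278). The other gene at this threshold was the supernumerary Uqcr11, with a log2 fold change of -0.24. This value came from libraries 72 to 76, where it was -0.39, against -0.01 in libraries 41 to 43 (unadjusted p = 0.93). With the run of numbers as a covariate, which also compares libraries 41 to 43 with WT, it was -0.03. Without library 43 it was -0.31. Of the electron-carrying and core subunits, the Rieske protein gene Uqcrfs1 had a log2 fold change of -0.05, Uqcrc1 of 0.02 and Uqcrc2 of -0.09. Without library 43 these were -0.02, 0.07 and -0.07.

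Uqcrb went the other way. It was at 76.3, 84.8, 84.7 and 79.6 CPM in WT mice and at 65.6, 94.9 and 102 CPM (lowest, median, highest) in MFN2 mice. Of the MFN2 mice, 7 lay above every WT mouse and 1, library 43, below them all. Its log2 fold change of 0.18 (standard error 0.10, adjusted p = 0.398) was 0.24 without library 43 (adjusted p = 0.0783), and it was 0.05 in libraries 41 to 43 and 0.25 in libraries 72 to 76. Cycs, the somatic form of cytochrome c, was at 77.6, 76, 79.6 and 76.4 CPM in WT mice and at 67.0, 75.2 and 82.0 CPM (lowest, median, highest) in MFN2 mice. The MFN2 values lay on both sides of the WT values, with a log2 fold change of -0.05 (standard error 0.06, adjusted p = 0.721) and of -0.03 without library 43.

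Complex IV had the lowest median of the complexes, a log2 fold change of -0.226, with 6 of its 14 tested genes lower at an unadjusted p under 0.05 and 0 higher (7.57% and 7.40% of all genes). The median was -0.133 in libraries 41 to 43, where that of complex III was -0.126, and -0.276 in libraries 72 to 76, where that of complex III was -0.033. The difference between the complexes was not tested. Cox4i1, the common form of the largest nuclear subunit, was at 271, 316, 324 and 300 CPM in WT mice and at 232, 241 and 274 CPM (lowest, median, highest) in MFN2 mice. Only the MFN2 value of library 42 reached into the WT range, and its log2 fold change was -0.28 (standard error 0.07, unadjusted p = 0.00121 and adjusted p = 0.254, edgeR). Cox7c, which has no paralog among these genes, was at 36.6, 38.3, 41.8 and 41.4 CPM in WT mice and at 29.9, 32.7 and 37.4 CPM (lowest, median, highest) in MFN2 mice. Library 43 was the exception among MFN2 mice, the other 7 being below the lowest WT value (log2 fold change -0.27, standard error 0.07, adjusted p = 0.254).

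Cox5a and Cox6b1 did not overlap between the groups. Cox5a (ENSMUSG00000000088, chr9:57521274-57532426), a nuclear subunit on the matrix side of the complex, was at 84.3, 85.1, 91.6 and 86.5 CPM in WT mice and at 53.6, 76.7 and 80.4 CPM (lowest, median, highest) in MFN2 mice. Its log2 fold change of -0.23 (standard error 0.09, adjusted p = 0.302) rested in part on library 43, which held the lowest value, and was -0.17 without it. Cox6b1 (ENSMUSG00000036751, chr7:30616861-30626151), the somatic form of a subunit on the side of the intermembrane space, was at 73, 64.4, 74.4 and 66.8 CPM in WT mice and at 55, 60 and 64.3 CPM (lowest, median, highest) in MFN2 mice. The highest MFN2 value and the lowest WT value differed by less than 1 CPM, and the log2 fold change was -0.23 (standard error 0.06, unadjusted p = 0.00342 and adjusted p = 0.254). The remaining genes at this threshold were the liver forms Cox6a1 and Cox7a2. The log2 fold change of Cox6a1 was -0.30, and -0.37 without library 43, with -0.11 in libraries 41 to 43 and -0.43 in libraries 72 to 76. The exception in direction was Cox6c, with a log2 fold change of 0.14 (unadjusted p = 0.174) and 5 MFN2 mice above every WT mouse. Without library 43 it was 0.19 (unadjusted p = 0.0266). The log2 fold change of Cox6c was -0.06 in libraries 41 to 43 and 0.26 in libraries 72 to 76.

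In complex V, 7 of 17 genes were lower at an unadjusted p under 0.05 and 0 higher (7.57% and 7.40% of all genes), with a median log2 fold change of -0.133. Atp5j2 (ENSMUSG00000038690, chr5:145183698-145192062), which encodes subunit f of the membrane part, had the lowest p of all complex II to V genes. It was at 67.8, 63.9, 72.2 and 70.8 CPM in WT mice and at 53.4 (lowest), 55.8 (median) and 58.4 CPM (highest) in MFN2 mice. The groups did not overlap, with 55.8 ± 1.60 CPM (SD, n = 8) against 68.6 ± 3.67 CPM (SD, n = 4), a log2 fold change of -0.30 (standard error 0.05, unadjusted p = 4.8e-05 and adjusted p = 0.162, edgeR). Without library 43 it was -0.29 (adjusted p = 0.0414). Over all alternatives the adjusted p of Atp5j2 ranged from 6.17e-06 with DESeq2 to 0.862 with libraries 41 and 42 alone.

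Atp5e (ENSMUSG00000016252, chr2:174461072-174464105), the epsilon subunit of the catalytic F1 part, was at 30.6, 30.3, 31.0 and 28.2 CPM in WT mice and at 21.2, 24.4 and 26.5 CPM (lowest, median, highest) in MFN2 mice. Its log2 fold change of -0.31 (standard error 0.07, unadjusted p = 0.000371 and adjusted p = 0.254) was the lowest among the F1 genes, and the groups did not overlap. Atp5k (ENSMUSG00000050856, chr5:108433244-108434448), subunit e of the membrane part, was at 54.8, 49.5, 55.2 and 48.3 CPM in WT mice and at 36.3, 42.7 and 48.0 CPM (lowest, median, highest) in MFN2 mice. Here the highest MFN2 value, of library 75, came within 1 CPM of the lowest WT value (log2 fold change -0.29, standard error 0.08, unadjusted p = 0.00317 and adjusted p = 0.254).

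The other genes of complex V follow by their place in the enzyme. Of the 5 F1 genes, the log2 fold change was below 0 in all 5, from -0.31 for Atp5e to -0.03 for Atp5a1, and Atp5e, Atp5b and Atp5d were lower at an unadjusted p under 0.05. Atp5a1 (chromosome 18) was at 768, 792, 809 and 732 CPM in WT mice and at 651, 762 and 816 CPM (lowest, median, highest) in MFN2 mice. The groups overlapped at both ends (standard error 0.06, adjusted p = 0.835), and the log2 fold change was 0.02 with scaling by library size alone and 0 without library 43. Of the 4 genes of the peripheral stalk, which holds the head in place, Atp5o was lower at this threshold and the log2 fold change of Atp5j was 0.22 (adjusted p = 0.422), and 0.29 without library 43 (adjusted p = 0.0944). For Atp5j it was 0.04 in libraries 41 to 43 and 0.33 in libraries 72 to 76. Of the 3 genes of the c subunit, Atp5g3 was lower at this threshold (log2 fold change -0.18, unadjusted p = 0.0173), and Atp5g1 and Atp5g2 had log2 fold changes of 0.05 and -0.21, which were 0.09 and -0.23 without library 43. Of the 4 supernumerary genes of the membrane part, Atp5j2 and Atp5k were lower, while Atp5l and Atp5mpl had log2 fold changes of 0.06 and 0.12, which were 0.09 and 0.19 without library 43. For Atp5mpl the value was -0.18 in libraries 41 to 43 and 0.28 in libraries 72 to 76.

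The MFN2 libraries 41 to 43 and 72 to 76 were each compared with the 4 WT libraries, which both comparisons share. With libraries 72 to 76, 23 of 45 genes passed the FDR, 19 lower and 4 higher, where 12.7% of all genes tested were lower and 11.1% higher. Their log2 fold changes were below 0 in 34 of 45 genes (50.2% of all genes). Without library 73, a choice made after the data were seen, 19 of 44 genes passed, 15 lower and 4 higher (10.6% and 9.76% of all genes). The 19 lower genes with all 5 libraries comprised 3 genes of complex III, 9 of complex IV and 7 of complex V. The 4 that rose were Uqcrb (log2 fold change 0.25, adjusted p = 0.0068), Cox6c (0.26, adjusted p = 0.00366), Atp5j (0.33, adjusted p = 0.00644) and Atp5mpl (0.28, adjusted p = 0.00208). In libraries 41 to 43 the log2 fold changes of these 4 were 0.05, -0.06, 0.04 and -0.18 in the same order. Libraries 41 to 43 gave 0 of 43 genes (0.00658% of all genes tested), and at an unadjusted p under 0.05 there were 3 lower (1.95% of all genes), namely Cox5a, Atp5e and Atp5j2, and 0 higher (5.18%). In that comparison 37 of the 43 log2 fold changes were below 0 (50.3% of all genes), with a median of -0.111 against -0.13 for libraries 72 to 76. With libraries 41 and 42 alone, a choice made after the data were seen, the median was -0.0697, and 7 genes were lower and 1 higher at an unadjusted p under 0.05 (2.36% and 3.37% of all genes). With the run of numbers as a covariate over all 12 libraries, 15 genes were lower and 0 higher at that p (5.05% and 9.89% of all genes) and 0 passed the FDR. The WT libraries are all of the lower run, so the genotype difference in this fit again compares libraries 41 to 43 with WT. Libraries 72 to 76 bear on it only through the scaling and the estimated spread. Of these 15 genes, 8 were among the 16 that were lower at that p without the covariate.

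Side by side, Cox4i1 had a log2 fold change of -0.16 in libraries 41 to 43 and -0.36 in libraries 72 to 76, Cyc1 of -0.15 and -0.26, Atp5k of -0.19 and -0.34, Atp5e of -0.28 and -0.32, and Atp5j2 of -0.27 and -0.31. Not all genes kept their direction. Of the 43 genes with a value in both sets, 27 were lower in both by rounded values. Another 8 were lower in libraries 41 to 43 and higher in 72 to 76, such as Atp5mpl (-0.18 and 0.28). The reverse held for 4, such as Cox8a (0.11 and -0.33). Of the summed markers of cell types, those of microglia did not overlap between libraries 72 to 76 and WT. Summed microglia markers (4 genes, 0 at 0, Csf1r the most abundant) were at 72.7 to 89.7 CPM in libraries 72 to 76 and at 91.7 to 123 CPM in WT mice. By gene, Csf1r overlapped (37.2 to 50.7 and 47.1 to 65.5 CPM), as did P2ry12 (11.1 to 12.7 and 12.3 to 16.7 CPM). Cx3cr1 (19.3 to 23 and 27.2 to 32.9 CPM) and Tmem119 (3.41 to 4.28 and 5.06 to 8.38 CPM) did not. The share of all genes without overlap in this comparison was not counted. Astrocyte markers (4 genes, 0 at 0, Aqp4 the most abundant) overlapped, at 1200 to 1570 CPM and at 1520 to 1890 CPM. Neuronal markers, with Nefl the most abundant, were at 5030 to 5580 CPM in these libraries, within the 4440 to 5830 CPM of WT mice. Oligodendrocyte markers also overlapped, at 18900 to 29100 CPM in these libraries and at 19500 to 25500 CPM in WT mice. Their part in the result was not tested.

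**Figure D3:**
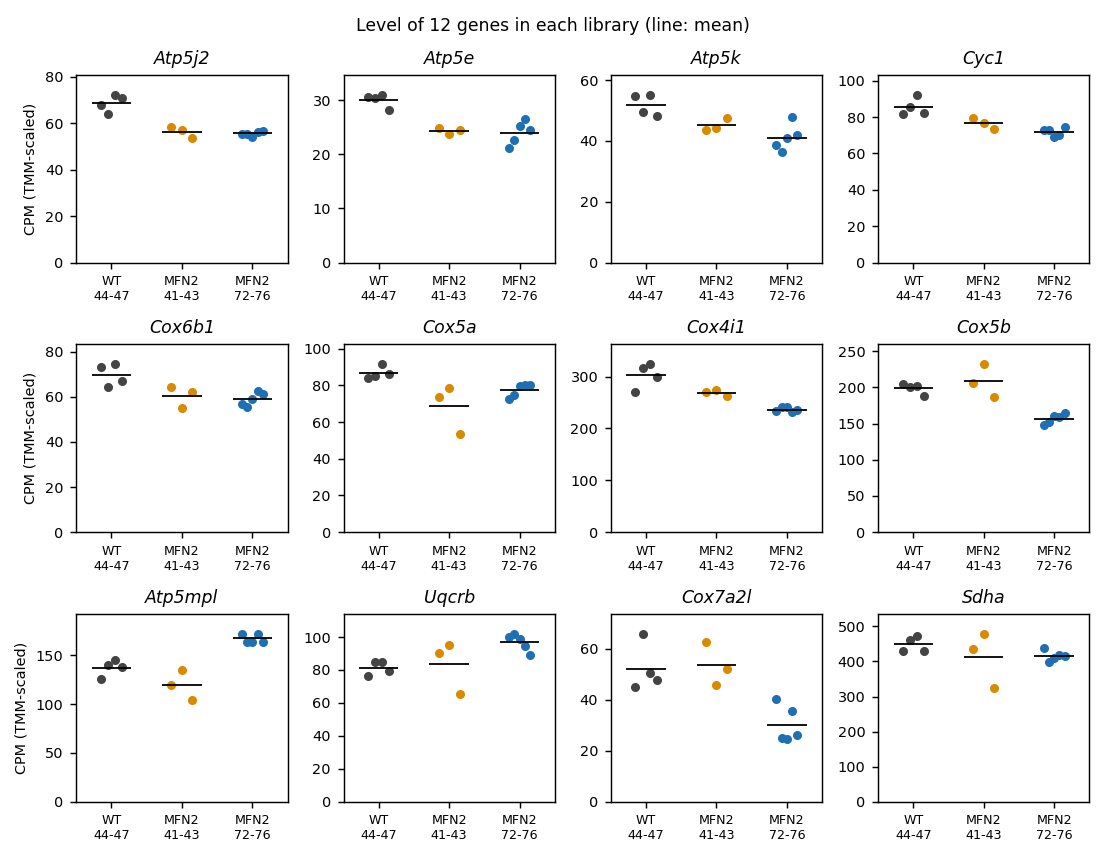
Levels in CPM (vertical axes from 0) of 12 genes in each library, as points for WT 44 to 47, MFN2 41 to 43 and MFN2 72 to 76, with a line at each mean. Atp5j2 had means of 56.3 and 55.6 CPM in the 2 sets of MFN2 libraries, while Cox5b had 208 and 157 CPM.

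The difference between the 2 sets of MFN2 libraries was tested within the MFN2 mice, libraries 72 to 76 against 41 to 43. At the same FDR, 1 gene was lower (1.18% of all genes tested) and 1 higher (1.00%). Cox5b, a nuclear subunit of complex IV that binds zinc, was at 206, 232 and 187 CPM in libraries 41 to 43, at 148, 152, 161, 159 and 164 CPM in libraries 72 to 76, and at 204, 200, 202 and 188 CPM in WT mice. It thus fell in libraries 72 to 76 against 41 to 43 (log2 difference -0.43, standard error 0.08, adjusted p = 0.0338, edgeR). Atp5mpl, a small proteolipid of the ATP synthase, was at 120, 135 and 104 CPM, at 172, 164, 164, 172 and 164 CPM, and at 126, 140, 145 and 138 CPM in the same order. It rose in libraries 72 to 76 (log2 difference 0.46, standard error 0.08, adjusted p = 0.0366). Both calls were lost on leaving out library 41 or any of 72 to 76. Without library 42, Cox5b no longer passed. Without library 43, 5 genes were lower and 3 higher (7.98% and 7.34% of all genes), and with DESeq2 6 were lower and 3 higher (6.12% and 5.36%). With scaling by library size alone 0 were lower and 3 higher (0.672% and 1.80%), namely Uqcrh, Cox6c and Atp5mpl, so that the call of Cox5b was lost there. Cox7a2l, which helps to join complexes III and IV into supercomplexes, was at 62.4, 45.9 and 52.0 CPM in libraries 41 to 43, at 40.2, 24.9, 24.4, 35.4 and 26.2 CPM in libraries 72 to 76, and at 45.1, 65.8, 50.3 and 47.5 CPM in WT mice. All 5 values of libraries 72 to 76 lay below the other 7, with a log2 fold change of -0.79 against WT (adjusted p = 0.0122), while the difference between the MFN2 sets was -0.84 (standard error 0.19, adjusted p = 0.06).

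Paralogous subunits were compared within each library. In complex IV the common forms were far above the lung, muscle and testis forms. Per kilobase of annotated exons, Cox4i1 was at 195 ± 15.1 RPKM and Cox4i2, the form known from lung, at 1.14 ± 0.402 RPKM in WT mice (SD, n = 4), and the liver form Cox8a was at 209 ± 17.4 RPKM with the muscle form Cox8b at 2.70 ± 1.34 RPKM. Cox7a2 was at 57.2 ± 4.30 RPKM and the muscle form Cox7a1 at 2.64 ± 0.752 RPKM. Of the testis forms, Cox6b2 ranged from 0.155 to 1.10 CPM, Cox7b2 from 0.0443 to 0.602 CPM, and Cox8c had a single count in library 42 and 0 in the other 11 libraries, where a count of 0 allows a level of up to 0.114 to 0.156 CPM by counting error alone. The muscle form Cox6a2 reached 2.44 CPM in library 43 and ranged from 0 to 0.702 CPM elsewhere.

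**Figure D4:**
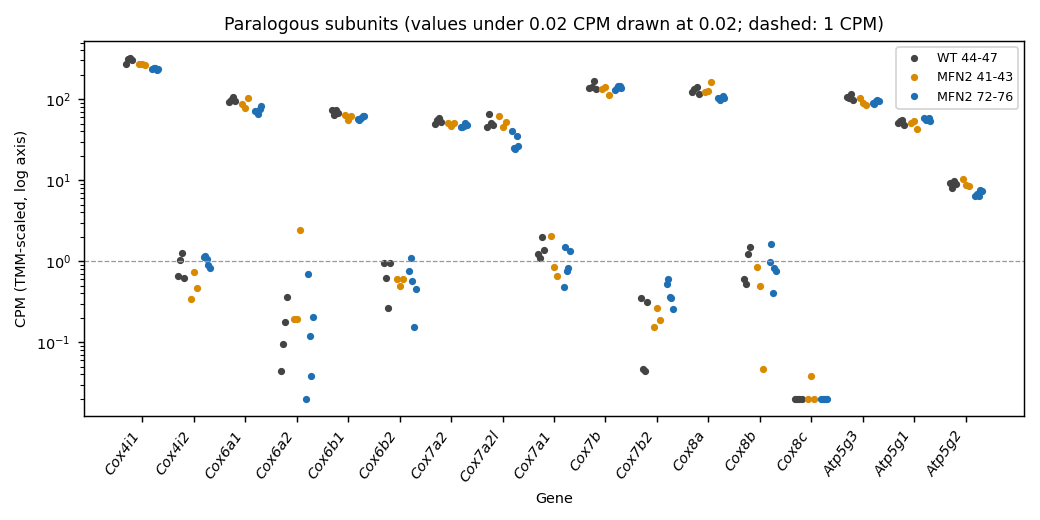
Levels in CPM on a log axis of 17 paralogous subunit genes in each library, coloured by set of libraries, with values under 0.02 CPM drawn at 0.02 and a dashed line at 1 CPM. The common forms of complex IV subunits lay between 44.9 CPM (Cox7a2, library 72) and 324 CPM (Cox4i1, WT 46) and their tissue forms at or under 2.44 CPM, while Cox7a2l was at 24.4 to 65.8 CPM and Atp5g2 at 6.44 to 10.3 CPM.

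Muscle RNA varied between libraries. The skeletal muscle markers (8 genes, Myh4 the most abundant at up to 114 CPM) summed to 322 CPM in MFN2 73, 289 CPM in WT 47 and 84.7 CPM in WT 46, and to 2.92 to 53.8 CPM in the other libraries. Cox8b was highest in the same 3 libraries, at 1.61, 1.51 and 1.24 CPM. The other muscle forms were highest elsewhere, Cox7a1 at 2.06 CPM in MFN2 41, where the muscle markers summed to 13.7 CPM, and Cox6a2 at 2.44 CPM in MFN2 43, where they summed to 21.9 CPM. The part of muscle RNA in these levels was not tested.

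The log2 ratio of 2 paralogs, per exonic length with 0.5 added to each count, was compared for the 6 of 10 pairs in which both genes were tested. None of the 6 passed an adjusted p of 0.05 (exact permutation, two-sided, with all 495 ways to split the 12 mice and Benjamini-Hochberg over the 6 pairs). The lowest p was for Atp5g1 to Atp5g3, genes whose precursors yield the same mature c subunit of the rotor ring. This ratio was -2.24, -2.10, -2.22 and -2.19 in WT mice and -2.20, -1.93 and -1.78 (lowest, median, highest) in MFN2 mice. The MFN2 values of libraries 41 and 43 lay among the WT values and the other 6 above them, a difference in means of 0.23 (exact permutation p = 0.0242, adjusted p = 0.145, where the smallest p is 0.00202). Between libraries 72 to 76 and WT alone, the same ratio was higher by 0.31 (exact permutation over 126 splits, adjusted p = 0.0476). There Cox7a2l to Cox7a2, with a difference of -0.62, and Atp5g2 to Atp5g3, with a difference of -0.19, had the same adjusted p. Libraries 41 to 43 against WT have 35 splits and a smallest p of 0.0286, at which a ratio alone could not pass the adjustment over 6 pairs, so no call was made there. The 3 c subunit genes themselves were ordered Atp5g3, Atp5g1 and Atp5g2 in every library on this per-length scale.

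By bins of exonic length, the median log2 fold change of the complex II to V genes was lowest in the shortest bin. Single genes departed from this order, such as Uqcrb (876 bases, 0.18) and Atp5j2 (3306 bases, -0.30), and the order was not tested. Outside the complex II to V genes, the order of the bins depended on the level of the genes. Among other genes above 50 CPM, the median log2 fold change was -0.095 for exonic lengths up to 1000 bases (45 genes), -0.10 over 1000 and up to 2000 bases (176 genes), -0.052 over 2000 and up to 4000 bases (751 genes) and 0.017 over 4000 bases (3100 genes). Among other genes at any level the shortest bin had the highest median, with 0.05 (701 genes), -0.046 (1681 genes), -0.021 (4914 genes) and 0.021 (8561 genes) in the same order. The complex II to V genes had medians of -0.226 (11 genes), -0.138 (16 genes), -0.103 (12 genes) and -0.017 (6 genes) in the same bins. When the trend with exonic length was removed from each library, their median was -0.0888, and 11 genes were lower and 1 higher at an unadjusted p under 0.05 (6.64% and 7.77% of all genes). For Atp5j2 the log2 fold change was then -0.26 (adjusted p = 0.198).

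**Figure D5:**
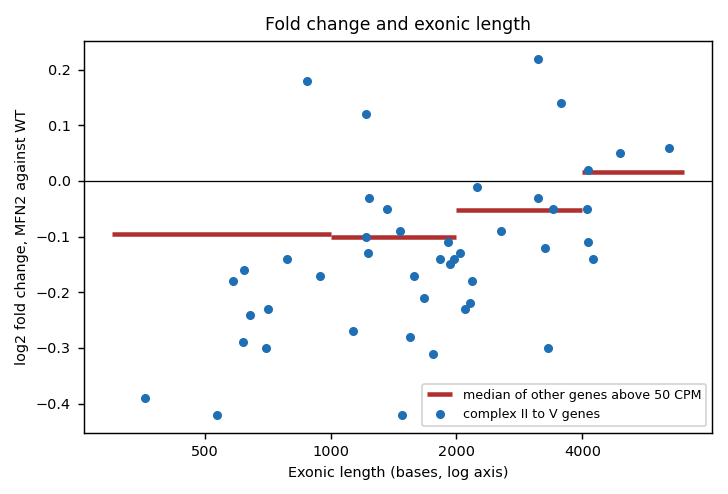
Log2 fold change, 8 MFN2 against 4 WT mice, by exonic length (log axis): points, the 45 complex II to V genes, and bars, the median of the other genes above 50 CPM in 4 bins of length. The bars are at -0.095, -0.10, -0.052 and 0.017 from short to long, and 11 points lie in the bin up to 1000 bases.

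Other genes of the pathway were counted in the same way. Of the 38 listed assembly factors of complexes II to V, 36 were tested, with 5 lower and 2 higher at an unadjusted p under 0.05 (7.57% and 7.40% of all genes) and a median log2 fold change of -0.0311. There were 3 lower and 4 higher with scaling by library size alone (4.66% and 11.5% of all genes) and also with the length trend removed (6.64% and 7.77%). The median changed sign in both, to 0.0192 and 0.0174. Without library 43 there were 7 lower and 4 higher (10.4% and 10.7%). The 5 with the lowest p act in the assembly of complex IV or its supercomplexes, as do many of the listed factors. Whether this exceeds their share of the list was not tested. Cox11 and Cox18, also factors of complex IV, had log2 fold changes of 0.26 and 0.27 (unadjusted p = 0.0501 and 0.0648, edgeR). Cmc2 was at 12.4, 12.6, 13.9 and 12.2 CPM in WT mice and at 8.4, 9.81 and 11.3 CPM (lowest, median, highest) in MFN2 mice. The groups did not overlap (log2 fold change -0.37, standard error 0.08, adjusted p = 0.254, edgeR). Cox14, Coa5, Higd2a and Coa3 followed, with log2 fold changes of -0.23, -0.17, -0.14 and -0.31, and the 2 higher genes were Atpaf2, a chaperone of the F1 part (0.29), and Uqcc2, which acts on complex III (0.24). For complex I, 38 nuclear genes were taken by a symbol starting with Nduf, Ndufaf excepted, without a check of each gene's place. Of these, 7 were lower and 0 higher (7.57% and 7.40% of all genes), with a median of -0.105. Of the 77 tested genes of mitochondrial ribosomal proteins, 9 were lower and 0 higher, with a median of -0.047. Without library 43 these counts were 11 lower and 1 higher for complex I and 11 lower and 4 higher for the ribosomal proteins, where 10.4% of all genes were lower and 10.7% higher. With scaling by library size alone they were 6 and 0, and 4 and 1 (4.66% and 11.5% of all genes).

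Some of these genes have near copies in the genome. Of the 49 genes, 18 share at least 1 stretch of 75 bases, the read length, with a transcript of another gene, and for 7 genes such stretches make up over 10% of all, led by Atp5g2 at 35.8%, Cycs at 23.9% and Cox7c at 19.6%. The counts of these genes are uncertain to that extent. Of the 6 genes without overlap between the genotypes, 1, Atp5j2, holds such stretches, at 0.3%. Over the 27 tested genes without any, the median log2 fold change was -0.136, with 10 lower and 0 higher at an unadjusted p under 0.05 (7.57% and 7.40% of all genes). The genes also overlap others: 14 have a neighbour on the opposite strand, Cox5a among them, and 6 on the same strand, Cox4i1 among them. The strand setting of the counting is not given in the sources used here, so reads of such pairs may not have been told apart.

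Nuclear respiratory genes are known to share binding sequences of the factors NRF1, of the ETS family (NRF2, or GABP) and YY1 near their starts, and these letters were looked for in the RefSeq windows (GRCm38.p6) of 250 bases before to 50 after the start. Windows were matched for 35 of the 49 genes. On either strand, GCGCATGCG (NRF1) occurred in 7 of the 35 genes, 20%, against 2.6% of 17492 protein-coding genes with a window. CCGGAAG (ETS) occurred in 12 genes, 34.3% against 12.9%, and AAGATGGCG (YY1) in 2 genes, 5.7% against 2.1%. In all, 16 genes held at least 1 of these and 5 genes held more than 1. The stretches of 5 genes are shown because they place the letters beside 4 genes lower in MFN2 mice at an unadjusted p under 0.05 and beside Cycs, whose values lay on both sides of WT. Each is printed 5′ to 3′ on the strand of the gene, with 10 bases on either side and the matched letters in capitals, where CGCATGCGC and CTTCCGG are the reverse complements of the NRF1 and ETS letters. In Atp5k and Cox6a1 a match of the NRF1 letters on the opposite strand overlaps the one shown, shifted by 1 base.
Atp5k: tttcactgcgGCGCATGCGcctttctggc
Cox6a1: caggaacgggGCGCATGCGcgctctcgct
Cycs: catgctagctCGCATGCGCgcgcacaaac
Atp5e: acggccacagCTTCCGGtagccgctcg
Uqcr11: tctctcctccCCGGAAGtagatgtcaa

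The Atp5k stretch lies at chr5:108434431-108434459, that of Cox6a1 at chr5:115349102-115349130 and that of Cycs at chr6:50566612-50566640, with the matched letters starting 50, 162 and 61 bases before the RefSeq start. The ETS letters start 102 bases before the start in Atp5e (chr2:174464187-174464213) and 66 in Uqcr11 (chr10:80406871-80406897), and all 5 genes are on the minus strand. The stretches lie upstream of the longest GENCODE model of the gene, except that of Atp5k, of which 18 bases fall inside it. Matches were not confined to genes with lower values: the ETS letters also occur in the window of Atp5j, which rose in libraries 72 to 76. Of the genes lower at that p, Atp5e, Atp5j2, Atp5k, Cox6a1, Cox6b1 and Uqcr11 hold at least 1 of the 3 sets of letters. Atp5b, Atp5d, Atp5g3, Atp5o, Cox5a, Cox7a2, Cox7c and Uqcr10 hold none, and Cyc1 and Cox4i1 had no matched window. Matches also lie in the windows of Atp5g2, Atp5h, Atp5l, Cox8a, Cycs, Sdhb, Sdhd, Uqcrc1 and Uqcrh, which were not lower at an unadjusted p under 0.05. A match is a description of the sequence, and binding was not measured.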

How the data were processed

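RNA of the lumbar spinal cord was taken from 1 mouse per library, and poly(A) RNA was sequenced in paired-end mode. Alignment to GRCm38.p6 was done with STAR after adapter trimming (tool and build as in the submitters' processing notes), and the authors deposited counts per Ensembl gene, as whole numbers without normalization. How reads were counted, and with which strand setting, is not given in the sources used here, and the labels and the study's methods name different library kits. Symbols came from GENCODE M21 and matched 49289 of 49548 identifiers; the 259 without a symbol were kept as identifiers.

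Genes above 1 CPM in at least 3 libraries (15942) were TMM-scaled and compared in edgeR 4.0.16 under R 4.3.3 (quasi-likelihood test in its earlier form, robust option, Benjamini-Hochberg over all tested genes, FDR 0.05). The choice of edgeR and FDR follows the study, whose methods name a generalized linear model but not its test or filter. Each standard error is the log2 fold change divided by the root of its F statistic. Paralog ratios were tested by exact permutation over samples. RPKM used the union of annotated exons. The fits were checked on simulated counts with known changes, larger than the main fold changes of the complex II to V genes. The simulation held no difference between runs and no outlying library, so it does not bear on changes of the size seen here. No pair of libraries agreed within sampling noise, so each counted as 1 sample.

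Genes were named by a rule: the 2 lowest p in each complex, the paralog pairs, genes without overlap between the groups, the highest level per length in each complex, the 5 lowest p among assembly factors, and the most abundant gene of each marker list. Cox5b, Atp5mpl, Cox6c, Atp5j, Uqcr11, Atp5b, Atp5d, Atp5o, Atpaf2, Uqcc2 and others outside it were named after their values were seen. The gene groups and lists were chosen with earlier results of these data known. Alternatives covered filters, scalings, DESeq2 1.42.0, limma 3.58.1 (voom), subsets of libraries, the run of numbers as a covariate, the removal of a length trend, and each library left out in turn. One marker result is not reported here.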

Additional observations from a re-analysis of the deposited data

Results flagged for a closer look

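Of 112 groups of values examined for a lone library, 13 held one, where chance gives about 5.6 groups with a lone library of any number. In all 13 it was library 43 of the MFN2 mice. The measure was the gap between the lowest or highest sample and its nearest neighbour, divided by the range of the group. Library 43 was the lowest MFN2 sample by this measure for Sdhb (0.55), Uqcrb (0.65), Cox5a (0.72), Cox7b (0.53), Atp5a1 (0.56), Atp5j (0.56) and Atp5l (0.53), and the highest for Cox8a (0.55). It was also lowest for the median deviation of the 45 genes (0.53), for the summed CPM of complex II (0.55), complex III (0.57) and complex V (0.72), and for the log2 ratio of Cox8b to Cox8a (0.61). Its summed levels were 473 CPM for complex II, 751.6 CPM for complex III and 2497 CPM for complex V, against 578.3 to 664 CPM, 829.1 to 887 CPM and 2905 to 3061 CPM in the other MFN2 libraries. The marker values of library 43 are given above, and their part in these values was not tested.

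Cox5b and Atp5mpl differed between the MFN2 libraries 72 to 76 and 41 to 43 in edgeR's test of that difference, with log2 differences of -0.43 and 0.46. For Cox5b the WT values, all of the lower run of numbers, lay in the range of libraries 41 to 43.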

How the results depend on the processing

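No paired analysis was possible because MFN2 and WT mice share no replicate numbers. Of 807 values of named genes and ratios under the alternatives, 741 kept their direction and side of the threshold, 38 passed it and 28 changed sign. None of these genes and ratios passed the threshold in the main fit, so none could lose it. The alternatives share most of their libraries, so the 807 values are not independent. DESeq2 called 200 genes, 5 of them of complexes II to V. Libraries 72 to 76 called 3746 genes, 23 genes of complexes II to V and 3 ratios. At an unadjusted p under 0.05 they gave 27 of 45 genes of complexes II to V and 19 of 36 assembly factors. Over all genes tested, 5949 of 15743 were at that p. Without library 73 these libraries called 3163 genes and 19 of complexes II to V. There were then 26 of 44 genes of complexes II to V and 15 of 36 assembly factors at that p, beside 5575 of all 15560 genes. Libraries 41 to 43 called 1 gene, with 3 genes of complexes II to V and 2 assembly factors at that p (1083 of all 15200 genes). Libraries 41 and 42 called 1 gene, with 8 and 3 (858 of all 14988 genes). At that p, scaling by library size alone gave 8 genes of complexes II to V (2582 of all 15942 genes), and the run as a covariate 3 assembly factors (2381 of all 15942 genes). Leaving out single libraries gave 0 to 19 genes called, 0 to 1 of complexes II to V, 7 to 20 of these and 3 to 11 assembly factors at that p (1418 to 3356 of all genes). Between the MFN2 sets it called 0 to 8 genes of complexes II to V, DESeq2 called 9, and the lowest and highest numbers over all genes were 31 without library 74 and 2375 without library 43, with 1795 by DESeq2. The cause was not tested.

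Signs changed near 0 for Atp5a1 (0.02 by library size, 0.01 without the length trend and with libraries 41 and 42) and Cycs (0 by library size). With the run as a covariate they changed for Atp5g1 (-0.09), Atp5g2 (0.03), Cox7a2l (0.03) and Cox8a (0.09). With libraries 41 to 43 they changed for Atp5g1 (-0.07), Atp5g2 (0.04), Cox7a2l (0.05), Cox8a (0.11) and the ratios Cox4i2 to Cox4i1 (-0.62), Cox7a2l to Cox7a2 (0.17) and Atp5g2 to Atp5g3 (0.21). With libraries 41 and 42 they changed for Atp5g2 (0.09), Cox7a1 (0.04), Cox7a2l (0.06), Sdha (0.04) and Sdhc (0). With libraries 72 to 76 they changed for Cox4i2 (0.16) and Cox8b to Cox8a (0.24), without library 73 in that set for Atp5a1 (0.02), Cox4i2 (0.12) and Cycs (0.01), and on leaving out single libraries for Cox4i2 (-0.27 to 0.09, above 0 without WT 46) and the ratios Cox4i2 to Cox4i1 (-0.03 to 0.29, below 0 without WT 47) and Cox8b to Cox8a (-0.72 to 0.06, above 0 without library 43). Genes near 1 CPM rest on few counts.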
